A study of Mus musculus with 12 samples.

Results

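The genes described here encode the subunits of the glutamate and GABA receptors. They were chosen by name and biotype alone: a protein-coding gene entered where its symbol began with Gria, Grin, Grik, Grid, Grm, Gabr or Gabbr and went on with only the subunit letter and number, which gave 47 of the 55862 genes in the deposited table. They comprised 4 AMPA receptor genes (Gria), 7 NMDA receptor genes (Grin), 5 kainate receptor genes (Grik), 2 delta receptor genes (Grid), 8 metabotropic glutamate receptor genes (Grm), 19 GABA-A receptor genes (Gabr) and 2 GABA-B receptor genes (Gabbr). The rule itself uses no expression value.

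Glutamate is the main excitatory transmitter of the brain and GABA the main inhibitory one. AMPA, kainate and NMDA receptors are glutamate-gated cation channels assembled from several subunits, GABA-A receptors are chloride channels that usually combine alpha, beta and a further subunit such as gamma or delta, and Grm and Gabbr products act through G proteins. Neurons carry most of these receptors, whereas astrocytes are best known for metabotropic glutamate receptors, GABA-B receptors and a narrower range of channel subunits. Which subunit of a class a cell makes sets the channel's kinetics, ion selectivity and pharmacology.

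RNA was sequenced from 12 samples of C57BL/6 mouse brain cells, 3 in each of 4 groups, and the study's methods give the substrain C57BL/6J for both NPC groups. ASTs were primary astrocytes of the cerebral cortex of newborn mice grown as a monolayer with serum and taken before sphere culture (day 0), and A-iSCs were such astrocytes after 5 days as spheres on agarose, the induced stem cell-like cells of the study. P56-NPCs were cells dissociated from the subependymal zone of adult mice (postnatal day 56), and P0-NPCs were cells dissociated from the hippocampus of newborn mice (postnatal day 0), both serving as positive controls. The sources name no sorting step for the NPC groups, so each is a mixed suspension named here by its label, and age and brain region cannot be told apart between them. The study's methods state in general that experiments were independent and repeated, but neither they nor the labels say whether the sequenced replicates came from separate cultures or animals, so p-values measure the spread between these samples, which may be technical.

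Levels are given in FPKM, that is, fragments relative to the length of the gene and the size of the library, as deposited. Since FPKM is per length, levels of different genes could be set side by side within a sample. The length used for a member equalled its total annotated exon bases, so ranks and shares between genes depend on the annotation. Between 17077780 and 24452419 fragments were counted on genes per sample, of which 7801 to 63286 fell on the 47 receptor genes, and for a gene 1 kilobase long a count of 3 fragments amounted to between 0.103 and 0.187 FPKM, a floor that reflects counting error alone. Mitochondrial genes took 16.5 to 17.6% of the fragments in the P56-NPC samples and 2.94 to 7.03% in the other samples. Groups were compared in pairs with limma on log2(FPKM + 1), over all genes with a mean of at least 1 FPKM in either group, and a gene was called where p was under 0.05 after Benjamini-Hochberg adjustment. Fold changes are on the log2(FPKM + 1) scale, which understates the change of genes at low levels. In bulk RNA, fewer cells of a type and less RNA per cell cannot be told apart.

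The promoters of members with the largest differences in each direction between the NPC groups are printed for reference. Grin2c, Grm3 and Gabrg1 had the 3 largest log2 fold changes toward P56-NPCs, and Grik2 and Gabra5 had, with Grin2b, the 3 largest toward P0-NPCs. A RefSeq window was found for 32 of the 47 members, and none for Grin2b. Each sequence is the stretch before the RefSeq start site on build GRCm38.p6, minus strand, 5′ to 3′, with annotated exons left out, and capitals mark matches on either strand to TTGGC, the recognition core of NFI factors, or GGGCGG, the GC box bound by Sp1.
Grin2c, chr11:115267244-115267493: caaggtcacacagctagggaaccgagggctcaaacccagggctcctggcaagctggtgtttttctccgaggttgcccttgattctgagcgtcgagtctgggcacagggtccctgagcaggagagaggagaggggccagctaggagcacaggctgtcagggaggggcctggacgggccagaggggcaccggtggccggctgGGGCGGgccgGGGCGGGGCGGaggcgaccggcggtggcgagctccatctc
Grm3, chr5:9725353-9725602: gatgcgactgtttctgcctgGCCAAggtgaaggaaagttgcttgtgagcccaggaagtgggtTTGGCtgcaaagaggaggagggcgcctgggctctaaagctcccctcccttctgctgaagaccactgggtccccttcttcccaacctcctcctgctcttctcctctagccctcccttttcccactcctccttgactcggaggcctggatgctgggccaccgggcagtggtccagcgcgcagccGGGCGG
Gabrg1, chr5:70842618-70842867: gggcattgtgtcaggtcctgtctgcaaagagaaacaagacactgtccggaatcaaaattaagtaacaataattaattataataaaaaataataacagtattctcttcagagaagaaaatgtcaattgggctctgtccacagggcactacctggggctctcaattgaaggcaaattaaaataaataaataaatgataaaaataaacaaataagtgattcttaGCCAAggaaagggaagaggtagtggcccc
Grik2, chr10:49788767-49788826: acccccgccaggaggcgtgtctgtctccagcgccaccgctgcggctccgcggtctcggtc
Gabra5, chr7:57510060-57510309: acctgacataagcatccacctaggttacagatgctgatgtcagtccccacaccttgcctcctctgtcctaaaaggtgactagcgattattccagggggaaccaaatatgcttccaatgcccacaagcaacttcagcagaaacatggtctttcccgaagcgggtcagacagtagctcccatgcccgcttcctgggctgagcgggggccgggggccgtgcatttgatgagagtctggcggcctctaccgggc

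The stretches differed in composition. The Grin2c stretch had a GC content of 68.8% with 15 CpG sites and 3 GC boxes, some of which overlap in the run of G and C just before the start site. The Grm3 stretch had 62.4% GC, 8 CpG sites, 1 GC box and 2 NFI cores, and its RefSeq start lies upstream of the start of the gene as deposited. The Gabrg1 stretch, by contrast, had 35.6% GC, 1 CpG site and 1 NFI core. The Grik2 stretch, 60 bases long because annotated exons were left out, had 75% GC, and the Gabra5 stretch had 56.4%, and neither held a match. Matches of this kind were common: over full RefSeq windows, TTGGC was present in 48.5% of 16613 protein-coding genes and in 17 of the 32 members, GGGCGG in 48.1% and in 18 members, and TATAAA, the TATA box, in 12.9% and in 3 members. A match is a description of the letters and no evidence of binding.

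Receptor genes were low in both astrocyte cultures and higher in both brain suspensions. A mean of at least 1 FPKM was reached by 8 of the 47 members in ASTs, 12 in A-iSCs, 32 in P56-NPCs and 28 in P0-NPCs, and 11 members stayed under it in every group. The summed level of all 47 was 60.2 ± 3.05 FPKM (SD, n = 3) in ASTs, 69.5 ± 2.34 in A-iSCs, 342 ± 40.0 in P56-NPCs and 247 ± 27.4 in P0-NPCs. P56-NPCs had the highest mean for 23 members and P0-NPCs for 20, against 3 for ASTs and 1 for A-iSCs. The lowest mean lay in ASTs for 34 members, among them Grm6, Gabra6 and Gabrr3, which were at 0 in A-iSCs and P56-NPCs as well.

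**Figure D1:**
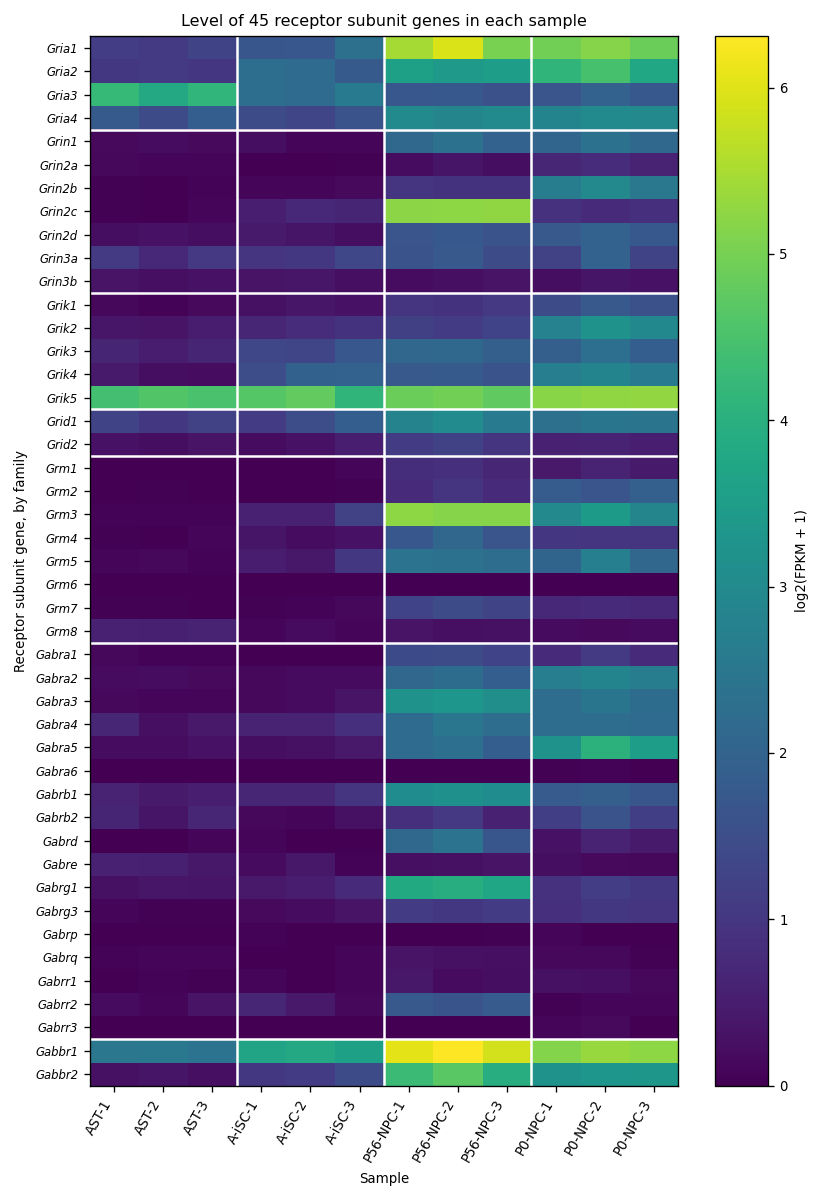
Level of 45 of the receptor subunit genes (rows, grouped by family with white lines between families) in each of the 12 samples (columns) as log2(FPKM + 1), from dark (0) to bright. The AST and A-iSC columns are dark except for a few rows such as Gria3 (mean 15.9 FPKM in ASTs), Grik5 (21.6) and Gabbr1 (11.9 in A-iSCs), whereas many rows are bright in P56-NPCs and P0-NPCs.

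Summed levels of cell type markers also differed between the groups, not always in the order of the receptor sums. The summed level of 9 neuron markers was 89.3 to 125 FPKM in AST samples, 51.5 to 67.1 in A-iSC samples, 246 to 304 in P56-NPC samples and 786 to 957 in P0-NPC samples. In ASTs that sum was mainly Stmn2 (mean 53.8 FPKM) and Tubb3 (40.7), whereas the neuronal markers Rbfox3 and Snap25 were near 0 (0.0268 and 0.0912). In P0-NPCs it was mostly Tubb3 (634), whereas Snap25, Map2, Nefl and Syp had higher means in P56-NPCs, and of the 9 markers 4 were called higher and 4 lower in P56-NPCs than in P0-NPCs. The sum of 5 immature neuron markers was 368 to 456 FPKM in P0-NPC samples and 6.30 to 13.9 in all other samples. The sum of 8 striatal projection neuron markers was highest in P56-NPC samples, 52.3 to 93.6 FPKM, against 2.80 to 13.1 elsewhere. Neurod2 and Neurod6 were at 0 in every AST sample, and Neurod2 and Tac1 in every A-iSC sample.

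Glial and other markers also differed. The sum of 9 astrocyte markers was 143 to 161 FPKM in AST samples, 1212 to 2468 in A-iSC samples, 2948 to 3196 in P56-NPC samples and 240 to 306 in P0-NPC samples. Of those 9 markers, 5 were called higher and 4 lower in P0-NPCs than in ASTs. Oligodendrocyte markers summed to 10825 to 12337 FPKM in P56-NPC samples and 15.2 to 75.9 in the others. Microglia markers summed to 1807 to 2642 FPKM in A-iSC samples and 105 to 662 elsewhere. The A-iSC sum was mostly C1qa and C1qb (means 1029 and 965 FPKM), whereas Tmem119 and P2ry12 had higher means in P56-NPCs (52.2 and 60.2) than in A-iSCs (16.8 and 7.30). Oligodendrocyte precursor markers were highest in P56-NPC samples (516 to 522 FPKM, 53.7 to 170 elsewhere), as were ependymal markers (267 to 368, 50.4 to 117 elsewhere). Endothelial markers were highest in P0-NPC samples (69.6 to 71.0, 1.19 to 3.78 elsewhere). Pericyte and fibroblast markers lay at 131 to 193 in AST and P0-NPC samples and at 7.03 to 12.7 in the other samples. The AST sum was mostly Col1a1 (mean 158 FPKM, against 34.2 in P0-NPCs). Rgs5, Col3a1 and Dcn were low in ASTs (0.311, 2.39 and 0.248) and higher in P0-NPCs (38.6, 34.9 and 11.96). Pdgfrb had similar means in ASTs and P0-NPCs (11.1 and 12.2). The part of these cell types in the receptor results was not tested.

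How receptor genes in the spheres differed from those in the monolayer was addressed by A-iSCs over ASTs. Of the 47 members 12 could be tested, and 6 were called higher and 1 lower, where 25.2% of all 14087 genes tested were called higher and 29.6% lower (54.8% in either direction). In either direction 58.3% of the tested members were called, near the share of all genes, so that count is no result about the members. The members that rose were the AMPA receptor genes Gria1 and Gria2, the kainate receptor genes Grik3 and Grik4, and both GABA-B receptor genes. The AMPA receptor gene Gria3 fell. The other 5, among them Gria4, Grik5, Grin3a and Grid1, were not called, with log2 fold changes of -0.24 to 0.32, though Grid1 was called higher without the first A-iSC sample (0.51, adjusted p = 0.0485). Of the 12, 8 were at or above 1 FPKM in both groups and 4 in A-iSCs only, and the latter entered the test because they were higher there. The median log2 fold change was 0.53 over the 12, a value raised by those 4, and 0.28 over the 8, beside -0.06 over all genes tested.

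AMPA receptors carry fast excitatory transmission, and their subunits moved in opposite directions. Gria3 (chromosome X, 41400854 to 41678601, plus strand, GRCm38) was at 17.7, 13.1 and 16.8 FPKM in the AST samples and at 3.84, 3.60 and 5.01 in the A-iSC samples. All AST samples were above all A-iSC samples, and the log2 fold change was -1.71 ± 0.16 (SE, adjusted p = 0.000115). Gria2, whose edited product makes AMPA receptors nearly impermeable to calcium (chromosome 3, 80681450 to 80802835, minus strand), was at 1.03, 1.12 and 1.0 FPKM in ASTs and at 3.88, 3.61 and 2.48 in A-iSCs. The groups again did not overlap, and Gria2 rose by 1.06 ± 0.15 on the log2 scale (adjusted p = 0.000856). Gria1, a subunit of many excitatory synapses (chromosome 11, 57011387 to 57330244, plus strand), was at 1.19, 1.11 and 1.47 FPKM in ASTs and at 2.24, 2.26 and 4.04 in A-iSCs, with the third A-iSC sample well above the other two. Its log2 fold change was 0.74 ± 0.19 (adjusted p = 0.0141). The summed AMPA receptor level was 12.1 ± 1.36 FPKM (SD, n = 3) in A-iSCs and 20.5 ± 3.00 in ASTs, a difference that was not tested.

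Within the AMPA class the mixture of subunits differed between the groups. Gria3 made up 77.5 ± 1.39% (SD, n = 3) of the summed Gria level in ASTs, 34.2 ± 2.32% in A-iSCs, 3.44 ± 0.475% in P56-NPCs and 4.34 ± 0.361% in P0-NPCs. The share of Gria2 was 5.25 ± 1.14% in ASTs and 28.1 ± 8.56% in A-iSCs, beside 16.7 ± 4.28% in P56-NPCs and 29.0 ± 3.70% in P0-NPCs. Gria1 took 6.18 ± 0.752% in ASTs and 23.2 ± 5.74% in A-iSCs, and had the largest share in P56-NPCs with 68.9 ± 7.71% and in P0-NPCs with 54.7 ± 2.23%. In P0-NPCs that rank depends on the gene lengths used, 6043 bases for Gria1 and 15548 for Gria2. By fragments, Gria2 lay above Gria1 in every P0-NPC sample (5868, 9554 and 5401 against 4142, 6086 and 4806). Gria4 took 14.5 ± 0.908% in A-iSCs, beside 11.1 ± 1.10% in ASTs and 11.9 ± 1.40% in P0-NPCs. A share does not move with the scaling between samples, and shares were described and not tested. A two-sided exact permutation test of 3 samples against 3 cannot give a p under 0.1.

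Kainate receptors are another class of fast glutamate channels and also tune transmitter release. Grik4 (chromosome 9, 42518135 to 42944493, minus strand), which encodes a high-affinity subunit, was at 0.380, 0.182 and 0.163 FPKM in the AST samples and at 1.79, 2.91 and 2.95 in the A-iSC samples. It showed the largest rise among the tested members, 1.5 ± 0.17 on the log2 scale (adjusted p = 0.000293), and the groups did not overlap. Grik3 rose from a mean of 0.526 to 1.76 FPKM (log2 fold change 0.84, adjusted p = 0.00194). Grik5 (chromosome 7, 25009849 to 25072346, minus strand), the other high-affinity subunit, which needs a partner from Grik1 to Grik3 to form a channel, was the most abundant kainate receptor gene in all 4 groups. Its level was 20.3, 23.0 and 21.6 FPKM in ASTs and 23.8, 26.5 and 16.6 in A-iSCs, with overlapping groups and a log2 fold change of 0.02 ± 0.18 (adjusted p = 0.941). Grik5 took 94.8 ± 1.26% of the summed Grik level in ASTs, 80.2 ± 6.84% in A-iSCs, 78.7 ± 0.544% in P56-NPCs and 67.6 ± 3.20% in P0-NPCs.

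GABA-B receptors are obligate dimers of the Gabbr1 and Gabbr2 products and inhibit cells slowly through G proteins. Gabbr1 (chromosome 17, 37045966 to 37075067, plus strand) was at 4.62, 4.80 and 4.28 FPKM in ASTs and at 11.7, 13.0 and 10.9 in A-iSCs, with no overlap. Its log2 fold change was 1.21 ± 0.11 (adjusted p = 9.89e-05). Gabbr2 rose from 0.232 ± 0.0496 (SD, n = 3) to 1.31 ± 0.407 FPKM, by 0.90 on the log2 scale (adjusted p = 0.00191). Gabbr1 remained the more abundant of the pair in every group.

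**Figure D2:**
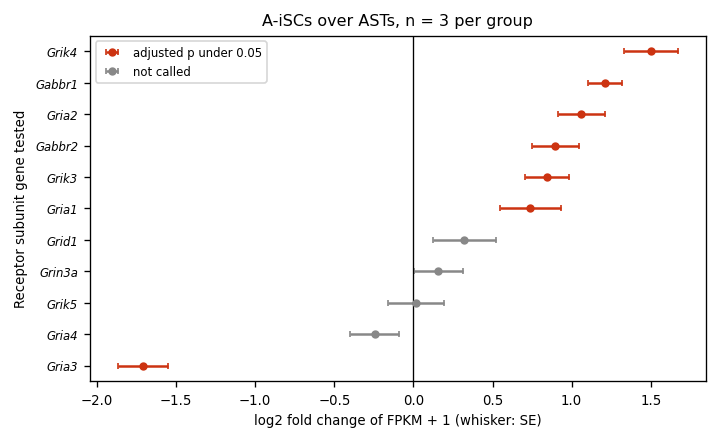
Log2 fold change of FPKM + 1 in A-iSCs over ASTs for 11 of the receptor subunit genes that could be tested, with whiskers for 1 SE (n = 3 per group, limma). Grik4, Gabbr1 and Gria2 lie farthest to the right at 1.5, 1.21 and 1.06, and Gria3 stands alone on the left at -1.71.

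Few genes of the remaining receptor families reached a mean of 1 FPKM in ASTs. No metabotropic glutamate receptor gene and no NMDA receptor gene other than Grin3a reached a mean of 1 FPKM in either culture, and the 19 GABA-A receptor genes summed to 8.28 ± 0.764 FPKM (SD, n = 3) in ASTs and 10.2 ± 2.37 in A-iSCs. Grin3a, which encodes a glycine-binding NMDA subunit, was at 1.12, 0.663 and 1.07 FPKM in ASTs and at 0.978, 1.03 and 1.52 in A-iSCs. Grid1, a delta receptor gene whose product organises synapses, was at 1.43, 1.04 and 1.36 and at 1.18, 1.82 and 2.72. The AST and A-iSC samples overlapped for both genes. Grin1, the obligatory subunit of NMDA receptors, was at 20 to 32 fragments per sample in ASTs and at 13 to 36 in A-iSCs.

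Low members could be compared only without the filter on levels. With limma-voom on the recovered fragments and no filter, a setting added after the data were seen, 9 of 32 further members were called higher in A-iSCs and 5 lower, where 16.4% of 30439 genes were called higher and 15.6% lower. With log2(FPKM + 1) and no filter, 6 were called higher and 3 lower, against 14.2% and 14.1% of the genes. Grin2c, an NMDA subunit gene best known from cerebellar granule cells and also made by astrocytes, had 2, 1 and 7 fragments in ASTs and 44, 75 and 76 in A-iSCs. Grm3, the metabotropic receptor gene most associated with astrocytes, had 2, 3 and 2 fragments in ASTs and 30, 35 and 112 in A-iSCs, and Grm5, the other main glial metabotropic gene, had 10, 21 and 8 in ASTs and 82, 81 and 281 in A-iSCs. In the unfiltered limma-voom fit Grin2c rose by 4.07 (adjusted p = 0.00027) and Grm3 by 3.84 (adjusted p = 0.00139) on the log2 scale.

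Grm8, a presynaptic group III receptor gene in neurons, went the other way: 81, 96 and 101 fragments in ASTs and 16, 30 and 18 in A-iSCs. It fell by 2.49 on the log2 scale in the unfiltered limma-voom fit (adjusted p = 0.000143). In FPKM, Grm8 was at 0.488, 0.478 and 0.549 in ASTs and at 0.0802, 0.127 and 0.0678 in A-iSCs, and it was called lower in both unfiltered fits. Gabrb2 and Grin2a were likewise called lower in both, and Grik2, Grm4, Grik1 and Gabrg3 higher in both. The third A-iSC sample was the highest of its group for Gria1, Gria3, Grm3, Grm5 and Grid1 and also for Gfap, an astrocyte filament gene (658, 769 and 1483 FPKM). It was the lowest of its group for Gria2, Grik5 and Gabbr1. The part of this sample's composition in the A-iSC values was not tested.

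**Figure D3:**
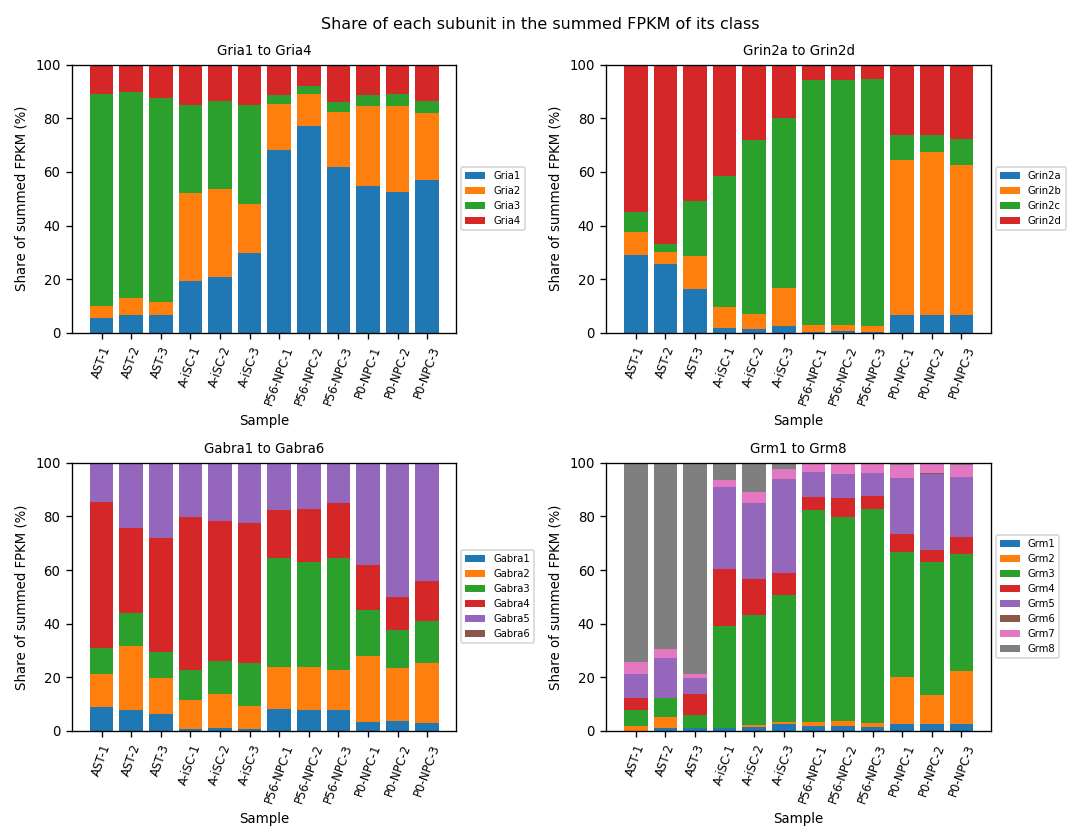
Share of each subunit gene (colours) in the summed FPKM of its class, in percent, for each of the 12 samples and 4 classes. Gria3 fills most of the AMPA bars in ASTs (77.5%) but little in the NPC groups (3.44 and 4.34%), Grin2c fills the Grin2 bars of P56-NPCs (91.7%), and Grin2b is the largest part in P0-NPCs (58.4%).

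In P56-NPCs over ASTs, receptor genes were mostly higher in the adult suspension. Of 32 members tested, 30 were called higher and 1 lower, where 39.1% of all 15146 genes tested were called higher and 39.8% lower (78.9% in either direction). In that comparison 24 members reached 1 FPKM only in P56-NPCs and so could enter only by being higher there. Over the 8 members at or above 1 FPKM in both groups the median log2 fold change was 1.45, beside -0.03 over all genes tested. Grin2c, Grm3 and Gria1 differed most, with log2 fold changes of 5.18 ± 0.06 (adjusted p = 7.73e-09), 5.14 ± 0.06 (adjusted p = 7.42e-09) and 4.32 ± 0.22 (adjusted p = 1.86e-06). Gria1 was at 43.3, 61.3 and 31.8 FPKM in the P56-NPC samples, above every AST sample. Gabbr1 was at 65.4, 78.2 and 57.6 FPKM and was the most abundant receptor gene of the group, with a log2 fold change over ASTs of 3.60 (adjusted p = 2.32e-07). Gria3 was the only tested member called lower, at 2.29, 2.31 and 1.96 FPKM, or -2.39 ± 0.12 on the log2 scale (adjusted p = 1.79e-06).

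In P0-NPCs over ASTs, most tested members were again higher in the suspension. Of 28 members tested, 27 were called higher and 1 lower, beside 38.1% and 40.9% (79.0% in either direction) of 15010 genes, and 20 of the 28 reached 1 FPKM only in P0-NPCs. Those 20 could enter only by being higher there. Over the 8 members at or above 1 FPKM in both groups the median log2 fold change was 1.33, beside -0.07 over all genes tested. The largest differences were those of Gria1 at 3.83 ± 0.10 (adjusted p = 4.82e-08), Gabra5, an alpha subunit abundant in hippocampus, at 3.37 ± 0.19 (adjusted p = 1.47e-06), and Gria2 at 3.08 ± 0.16 (adjusted p = 1.09e-06) on the log2 scale. Gria1 was at 30.0, 34.6 and 28.9 FPKM and Gria2 at 16.5, 21.1 and 12.6 in the P0-NPC samples, above all samples of both cultures. Gria3 was again the lower one, at 2.15, 2.98 and 2.32 FPKM (log2 fold change -2.27, adjusted p = 2.25e-06). The call of Grin3a, 0.55 on the log2 scale (adjusted p = 0.0395), was lost without the second P0-NPC sample (adjusted p = 0.0703), the second AST sample (0.115) or the third AST sample (0.0533). It was also lost with upper-quartile scaling (0.0536), with no filter on levels (0.0976) and with a block for the replicate number (0.0688). These comparisons share the AST samples.

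A-iSCs remained below both suspensions for most receptor genes tested. Over P56-NPCs, 28 of 32 tested members were called lower and 1 higher, beside 30.9% and 30.1% (61.0% in either direction) of 15044 genes, and 20 of the 32 reached 1 FPKM only in P56-NPCs. Over P0-NPCs, 26 of 28 were called lower and 1 higher, beside 33.6% and 31.5% (65.1% in either direction) of 15170 genes, and 16 of the 28 reached 1 FPKM only in P0-NPCs. Those 20 and 16 could enter only by being lower in A-iSCs, so the counts lean that way by the filter. Over the 12 members at or above 1 FPKM in both groups, the median log2 fold change was -0.95 over P56-NPCs and -1.04 over P0-NPCs. Over all genes tested it was 0.03 and -0.02. Gria3 was the higher member in both, with log2 fold changes of 0.68 ± 0.13 (adjusted p = 0.00298) over P56-NPCs and 0.56 ± 0.15 (adjusted p = 0.011) over P0-NPCs, and the latter call was lost without the first P0-NPC sample (0.49, adjusted p = 0.0505). Of the genes that had risen in A-iSCs over ASTs, Grik4 was not called different between A-iSCs and P56-NPCs (2.38, 2.48 and 2.08 FPKM in P56-NPCs, log2 fold change 0.08 ± 0.16, adjusted p = 0.661), although with library-size scaling it was called higher in A-iSCs (0.47, adjusted p = 0.0346). Gria2 stayed below P56-NPCs, which had 10.9, 9.66 and 10.6 FPKM, by -1.41 on the log2 scale (adjusted p = 0.000149), and Gabbr1 by -2.39 (adjusted p = 8.47e-06).

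**Figure D4:**
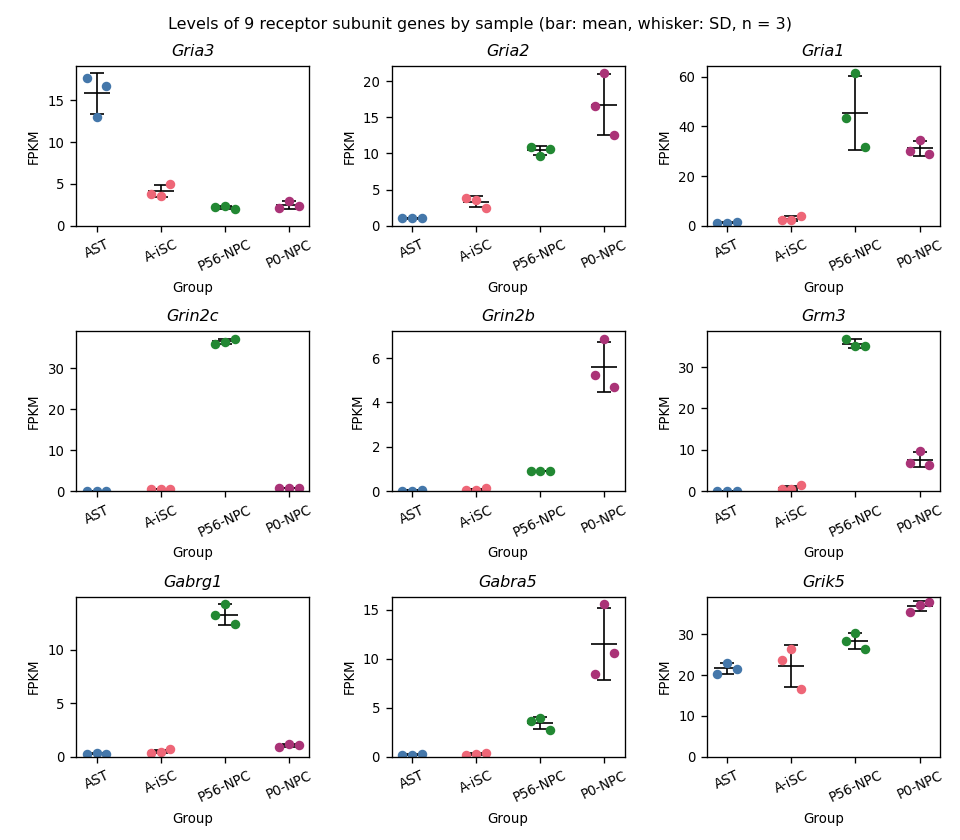
Level in FPKM of 9 receptor subunit genes in the 3 samples of each group (points, with a bar for the mean and whiskers for the SD). Gria3 is highest in ASTs (mean 15.9), Grin2c, Grm3 and Gabrg1 in P56-NPCs (36.5, 35.6 and 13.3), Grin2b and Gabra5 in P0-NPCs (5.61 and 11.5), and the AST and A-iSC points of Grik5 overlap.

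The NPC suspensions were then compared with each other. In P56-NPCs over P0-NPCs 36 members were tested, 14 were called higher and 12 lower, and 10 were not called, beside 39.7% of 15394 genes called higher and 39.0% lower. With library-size scaling the split was 10 higher and 18 lower of 35 tested. In either direction 72.2% of the tested members and 78.8% of all tested genes were called, and the median log2 fold change was 0.06 over the members and 0.01 over all genes. The share of members called lay below that of all genes, so the count is no result about the members. Of the 36, 24 were at or above 1 FPKM in both groups, 8 in P56-NPCs only and 4 in P0-NPCs only. Both delta and both GABA-B receptor genes were higher in P56-NPCs, 4 of 5 kainate receptor genes were lower, and within the NMDA, metabotropic and GABA-A families some members were higher and others lower.

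NMDA receptors need the Grin1 product together with Grin2 subunits that set their properties. Of the Grin2 genes, Grin2c was called higher and Grin2b lower in P56-NPCs, whereas Grin2d was not called (-0.15, adjusted p = 0.164) and Grin2a, under 1 FPKM in both suspensions, did not enter that test. In the unfiltered fits Grin2a, with 46, 83 and 52 fragments in P56-NPCs and 242, 393 and 272 in P0-NPCs, was called lower in P56-NPCs (log2 fold change -0.44, adjusted p = 0.00485, and -1.68, adjusted p = 0.000115, with limma-voom). Grin2c (chromosome 11, 115249169 to 115267243, minus strand) was at 35.9, 36.5 and 37.2 FPKM in P56-NPCs and at 0.850, 0.696 and 0.800 in P0-NPCs. No other member differed as much, and the log2 fold change was 4.40 ± 0.06 (adjusted p = 6.47e-09). Grin2b, the subunit of immature forebrain synapses (chromosome 6, 135713233 to 136173511, minus strand), was at 0.918, 0.908 and 0.894 FPKM in P56-NPCs and at 5.25, 6.87 and 4.72 in P0-NPCs, and was lower in P56-NPCs by -1.78 ± 0.12 (adjusted p = 5.98e-06). Grin1 was not called, with means of 3.43 ± 0.580 and 3.54 ± 0.499 FPKM (SD, n = 3, log2 fold change -0.04, adjusted p = 0.781). Grin2c thus made up 91.7 ± 0.488% of the summed Grin2 level in P56-NPCs and 8.36 ± 1.90% in P0-NPCs, where Grin2b took 58.4 ± 2.39%. In P56-NPCs the level of Grin2c exceeded that of Grin1 in the same samples. The A-iSC share of Grin2c was 59.2 ± 8.75%, on 490 Grin2 fragments over the 3 samples, and the AST share 10.3 ± 9.08%, on 202 fragments.

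Of 5 metabotropic glutamate receptor genes tested, 3 were called higher and 1 lower in P56-NPCs. Grm3 (chromosome 5, 9485541 to 9725170, minus strand) was at 36.8, 35.1 and 35.0 FPKM in P56-NPCs and at 6.81, 9.74 and 6.33 in P0-NPCs, so the groups were far apart, with a log2 fold change of 2.11 ± 0.14 (adjusted p = 4.75e-06). Grm4 (0.84) and Grm7 (0.61), group III receptor genes that act at presynaptic terminals, were also called higher in P56-NPCs. Grm2, the other group II gene, was lower, with means of 0.769 ± 0.140 and 2.53 ± 0.340 FPKM (log2 fold change -1.0, adjusted p = 7.36e-05). Grm5 was not called, at 4.05 ± 0.256 and 3.96 ± 1.42 FPKM. Grm3 made up 78.3 ± 1.96% of the summed Grm level in P56-NPCs, 46.5 ± 2.80% in P0-NPCs, 42.2 ± 4.81% in A-iSCs and 6.02 ± 0.986% in ASTs, where Grm8 took 74.1 ± 4.74% of a sum of only 0.682 FPKM.

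GABA-A receptor genes are taken by subunit class. Among the gamma subunits, Gabrg1 (chromosome 5, 70751047 to 70842617, minus strand), a gene found in glia and in some deep brain regions, was at 13.2, 14.3 and 12.3 FPKM in P56-NPCs and at 0.861, 1.20 and 1.04 in P0-NPCs, which gave 2.81 ± 0.09 on the log2 scale (adjusted p = 1.57e-07). Gabrg1 took 69.1 ± 2.81% of the summed level of the gamma, delta, epsilon, pi and theta subunit genes in P56-NPCs and 15.1 ± 0.194% in P0-NPCs. Gabrd, the delta subunit of extrasynaptic receptors, was higher in P56-NPCs, 3.29 ± 1.06 against 0.385 ± 0.161 FPKM (log2 fold change 1.61, adjusted p = 0.000121), as was Gabrr2, a rho subunit, 2.36 ± 0.208 against 0.0517 ± 0.0268 FPKM.

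The alpha and beta classes also differed in their makeup. Gabra5 (chromosome 7, 57407672 to 57510059, minus strand) was at 3.60, 3.94 and 2.72 FPKM in P56-NPCs and at 8.45, 15.6 and 10.5 in P0-NPCs, with no overlap and a log2 fold change of -1.47 ± 0.20 (adjusted p = 0.000311). It took 44.0 ± 5.96% of the summed alpha level in P0-NPCs, whereas Gabra3 took 40.7 ± 1.38% in P56-NPCs and Gabra4 42.7 ± 11.3% in ASTs and 53.8 ± 3.05% in A-iSCs. Gabrb1 was higher in P56-NPCs, 7.56 ± 0.338 against 2.48 ± 0.250 FPKM (log2 fold change 1.30, adjusted p = 3.03e-06), with 54.3 ± 1.21% of the summed beta level against 12.2 ± 1.05%. Gabra6, Gabrr3 and Grm6 had no fragment in any sample outside P0-NPCs, and Gabrp stayed under 0.1 FPKM in every sample.

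Kainate receptor genes were lower in P56-NPCs, Grik3 excepted. Grik2 (chromosome 10, 49094833 to 49788766, minus strand), a core subunit of hippocampal kainate receptors, was at 1.29, 1.18 and 1.40 FPKM in P56-NPCs and at 5.97, 8.45 and 6.74 in P0-NPCs. It had the most negative log2 fold change of the members, -1.80 ± 0.12 (adjusted p = 4.79e-06). Grik4 was at 2.38, 2.48 and 2.08 against 5.47, 6.24 and 5.03 FPKM, and Grik5 at 28.5, 30.3 and 26.4 against 35.5, 37.2 and 38.1. Both differences were called, at -0.99 and -0.37 on the log2 scale, and Grik3 was not (0.01, adjusted p = 0.971). Among the AMPA receptor genes only Gria2 was called (-0.61, adjusted p = 0.00928), although with library-size scaling Gria3 was also called lower (-0.55, adjusted p = 0.00188, against -0.12 as reported). Gria1 spread from 31.8 to 61.3 FPKM in P56-NPCs and missed the threshold (0.49 ± 0.21, adjusted p = 0.0666), which it passed with limma-voom (adjusted p = 0.0351) and without the third P56-NPC sample (0.71, adjusted p = 0.00455).

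**Figure D5:**
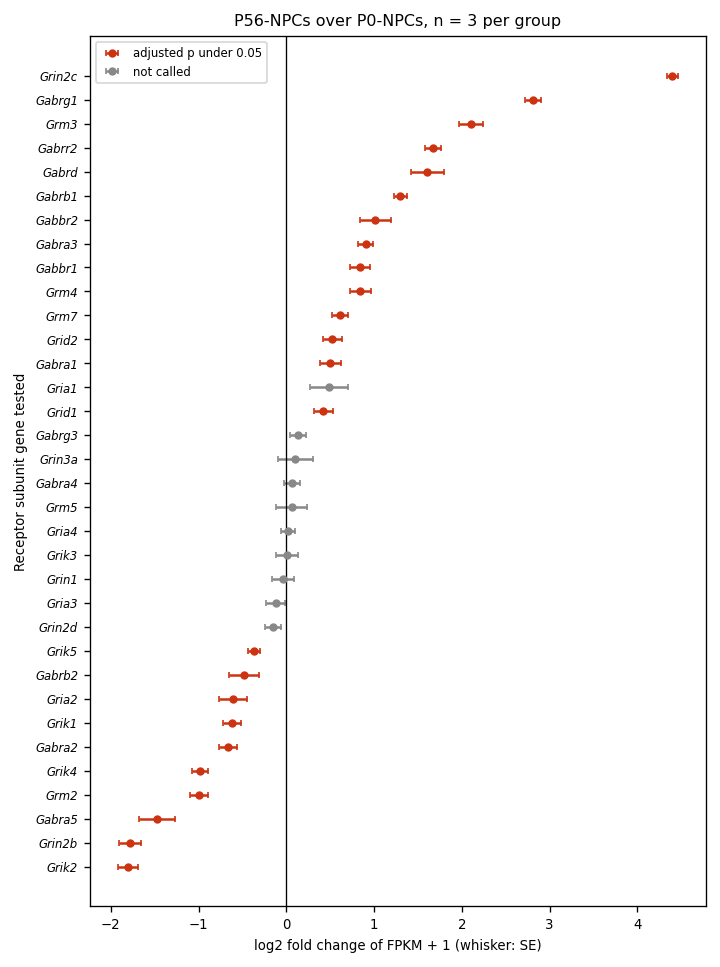
Log2 fold change of FPKM + 1 in P56-NPCs over P0-NPCs for 34 of the receptor subunit genes that could be tested, with whiskers for 1 SE (n = 3 per group, limma). The values run from -1.80 (Grik2) to 4.40 (Grin2c), with 14 of the genes plotted called on the right, 10 on the left and 10 not called.

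Scaling bears on this last comparison. With library-size scaling alone, the median of all genes tested shifted from 0.01 to -0.53 for P56-NPCs over P0-NPCs, and the log2 fold change of Grid1 went from 0.42 to -0.11. Grid1 was the only called receptor gene with values by sample here whose sign turned in that setting. In the same setting the call of Gabbr1 was lost (0.22, adjusted p = 0.0794). Age, brain region and the cell types above move together with these differences and cannot be told apart.

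Genes that work with the receptors were followed as fixed lists, to be read against the 25.2% of all genes tested called higher and 29.6% called lower in A-iSCs over ASTs. Of 13 genes for auxiliary subunits of AMPA and kainate receptors, which control trafficking and gating, 7 could be tested in A-iSCs over ASTs, 4 were called higher and 1 lower. Cacng4 rose most, from 0.746 ± 0.101 to 16.4 ± 1.53 FPKM (log2 fold change 3.31), and Neto2, a kainate receptor partner, fell from 30.0 ± 0.727 to 18.9 ± 2.77 FPKM (-0.65). Excitatory scaffold genes gave 3 higher and 4 lower of 11 tested, from Dlgap1 at 0.93 to Homer3 at -0.91. Inhibitory scaffold genes and GABA-B partners gave 6 higher of 7 tested, with 1 not called, led by Lhfpl4 at 1.11.

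Several transporters and enzymes that supply or clear the transmitters also rose in the spheres. Glutamate supply and clearance genes gave 6 higher of 8 tested, with 2 not called, led by Slc1a2, the main glial glutamate transporter, from 1.72 ± 0.131 to 23.0 ± 11.8 FPKM (log2 fold change 3.04). GABA supply and clearance genes gave 5 higher of 6 tested, with 1 not called, led by Slc6a11, a glial GABA transporter, from 0.0598 ± 0.0250 to 4.91 ± 2.36 FPKM (2.40). Slc1a2 and Slc1a3 are also among the 9 astrocyte markers. All 3 tested genes for RNA editing enzymes and D-serine synthesis were called higher, led by Adar at 0.63, and the chloride importer gene Slc12a2 was not called (-0.17, adjusted p = 0.497). The lists were chosen with earlier results of these data known, so the counts describe the lists and support nothing further.

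In P56-NPCs over P0-NPCs the same lists were mixed, where 39.7% of all genes tested were called higher and 39.0% lower (78.8% in either direction). Auxiliary subunit genes gave 3 higher and 7 lower of 11 tested, from Shisa9 at 1.68 to Neto2 at -2.38. Excitatory scaffold genes gave 11 higher and 5 lower of 19, from Camk2a, a kinase of mature synapses with 391 ± 24.5 against 6.40 ± 2.49 FPKM, at 5.78 to Camk2b at -1.25. Inhibitory scaffold genes gave 4 higher and 4 lower of 9, from Iqsec3 at 2.60 to Shisa7 at -1.17. Glutamate supply genes gave 8 higher and 3 lower of 12, from Slc1a2 at 4.58 to Slc17a6, a vesicular glutamate transporter gene, at -1.96, and GABA supply genes gave 8 higher and 1 lower of 9, from Slc6a11 at 3.54 to Slc6a13 at -3.83. Both chloride transporter genes were higher, Slc12a5, the neuronal exporter, by 2.15 and Slc12a2 by 1.90, and editing and D-serine genes gave 2 higher and 2 lower of 4, from Adarb1 at 2.08 to Adarb2 at -0.65.

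Overlap of annotated exons with other genes limits a few values. Exons of Grin3b share 32.1% of their bases with Tmem259 on the opposite strand, those of Grin1 13.5% with Grin1os, and those of Grm6 11.1% with another gene. For all other members the share was under 10%. Whether the counting used strand is not given in the sources used here, so reads of these genes and their partners may be mixed.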

How the data were processed

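RNA of 12 samples was sequenced, 3 per group, from NEBNext Ultra libraries read as paired ends on an Illumina HiSeq. The authors deposited a table of 1 FPKM value per gene and sample, with the gene length. The unit is not named and was deduced: FPKM times gene length gave whole multiples of 1 step per sample (tolerance 0.05 of a step), which returned the fragments. The library size behind the deposited FPKM was 0.744 to 1.218 times the counted fragments, so it included a scaling between samples. The submitters' processing notes name Bowtie 0.12.2 and mm8, whereas the positions of 47 of 47 members matched GENCODE M21 on GRCm38, the build used here. The counting tool is not given in the sources used here.

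limma 3.58.1 in R 4.3.3 (lmFit, eBayes with trend) was run for 6 comparisons of 2 groups on log2(FPKM + 1), with Benjamini-Hochberg adjustment over all genes tested, and checked on simulated data. The study's count test was not run. Alternatives were upper-quartile and library-size scaling, no filter, a pseudocount of 0.1, a model of all 4 groups, a replicate block, limma-voom on recovered fragments and leaving out each sample. limma-voom with no filter was added after the data were seen. Values per sample are given for 15 members: the highest of each family in each group, and in each comparison the 3 called members with the largest and the 3 with the smallest log2 fold change. The fragments of low members in the cultures, and the members singled out among those not named by this rule, were chosen after their values were seen. From each partner list the called genes with the largest and smallest change are named, and Slc12a2 was added. Some members that the rule covers are not reported here, though they stay in all counts and sums. The members and lists were chosen with earlier results of these data known. Promoters come from RefSeq (GRCm38.p6). Python 3.11.15 with numpy 2.4.6, pandas 2.3.3 and matplotlib 3.10.9 was used for the other steps.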

Additional observations from a re-analysis of the deposited data

How the results depend on the processing

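Of the counts of called members, those higher in P56-NPCs than in ASTs, higher in P0-NPCs than in ASTs, lower in A-iSCs than in either NPC group, and higher or lower in P56-NPCs than in P0-NPCs stayed within 1.5 times the reported count under every alternative run, though library-size scaling turned the 14 higher and 12 lower of the last comparison into 10 and 18. Without the filter, members with a higher level in A-iSCs than ASTs numbered 12 (15 with limma-voom) instead of 6 and members lower 4 (6 with limma-voom) instead of 1, because 44 members were then tested. Likewise 3 instead of 1 were lower in P56-NPCs and 3 instead of 1 lower in P0-NPCs than in ASTs, with either fit, and 2 instead of 1 were above P0-NPCs in A-iSCs with limma-voom. With library-size scaling 2 instead of 1 were lower in P56-NPCs than in ASTs and 3 instead of 1 above P56-NPCs in A-iSCs (among them Grik4 at 0.47 beside Gria3). That scaling moved the median of all genes to -0.34 and 0.49 in these comparisons.

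Leaving out each sample gave 6 to 7 members higher and 1 to 1 lower in A-iSCs than in ASTs, 30 to 31 and 1 to 1 for P56-NPCs over ASTs, 25 to 27 and 1 to 1 for P0-NPCs over ASTs, 1 to 1 and 26 to 28 for A-iSCs over P56-NPCs, 0 to 1 and 24 to 26 for A-iSCs over P0-NPCs, and 14 to 16 and 11 to 12 for P56-NPCs over P0-NPCs. The call lost without the first P0-NPC sample was that of Gria3 over P0-NPCs (0.49, adjusted p = 0.0505). Grid1 in A-iSCs over ASTs gained a call without the first A-iSC sample (0.51, adjusted p = 0.0485). Without single samples, Grin3a (4 of 6 samples) and Grik2 (3 of 6) also lost their calls in A-iSCs over P56-NPCs, and Gabrg1 (2 of 6) in A-iSCs over P0-NPCs. With library-size scaling, Grin3a in A-iSCs over P56-NPCs (-0.15, adjusted p = 0.334) and Grik5 in P56-NPCs over ASTs (0.047, adjusted p = 0.579) lost their calls and Gria3 in P56-NPCs over P0-NPCs gained one (-0.55, adjusted p = 0.00188). In the model of all 4 groups, Grik5 in A-iSCs over P56-NPCs gained a call (-0.36, adjusted p = 0.0409).

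Among the log2 fold changes of single members, Grid1 in P56-NPCs over P0-NPCs turned to -0.11 with library-size scaling, the only called value of 65 to change sign. Values that were not called changed sign as follows: Grik5 in A-iSCs over ASTs to -0.11 with upper-quartile scaling and to between -0.12 and 0.21 without a sample, Grik4 in A-iSCs over P56-NPCs to between -0.0022 and 0.25 without a sample, Grik5 in the same comparison to 0.18 with library-size scaling, and, for P56-NPCs over P0-NPCs with library-size scaling, Gria1 to -0.13 and Grin3a to -0.31, with Grin3a between -0.031 and 0.34 without a sample, the latter a call (adjusted p = 0.0301, without the second P0-NPC sample). The cause was not tested.

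Samples with the same replicate number deviated together in no consistent way: residual correlations were -0.41, 0.35 and 0.45 for A-iSCs with ASTs, and equal numbers were not treated as pairs. With the replicate block, Grin3a in P0-NPCs over ASTs lost its call (0.55, adjusted p = 0.0688), as it did with no filter (0.0976) and with upper-quartile scaling (0.0536), Gria1 in P56-NPCs over P0-NPCs gained one (0.49, adjusted p = 0.0166), and no other named value changed its call. Depth limits the members under 1 FPKM in the cultures, many of which rest on fewer than 100 fragments per sample.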
